A study of Mus musculus with 18 samples.

Results

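10 genes of the lysosome and of autophagy were followed in mouse melanoma B16 cells. They were picked by symbol, 10 of 46068 genes in the total RNA table, and all 10 were measured in every library. They are Tfeb, Tfe3, Gpnmb, Ctsb, Ctsd, Ctsl, Lamp1, Lamp2, Sqstm1 and Map1lc3b. Total RNA was sequenced from B16 cells treated with PB-4 (sodium 4-phenylbutanoate, an inhibitor of histone deacetylases and a chemical chaperone), from B16 cells treated with ATRA (all-trans retinoic acid, which activates the nuclear retinoic acid receptors) and from Control B16 cells, with 3 libraries in each of the 3 groups. All groups are the same cell line, both agents were used to drive its differentiation, and neither dose nor duration is stated for these libraries. The sample labels name skin as the source and B16 as the line. Nothing in the labels says that the libraries of a group came from separate cultures, so the p-values below speak of the spread among these libraries, which may be technical.

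The lysosome is the acidic compartment in which cells break down proteins, lipids and worn-out organelles. Autophagy delivers cytoplasmic cargo to it, wrapped in a double membrane called the autophagosome. TFEB and TFE3 are transcription factors of the MiT/TFE family, to which the melanocyte factor MITF also belongs. When nutrients are plentiful, the kinase complex mTORC1 holds TFEB and TFE3 in the cytoplasm at the lysosome surface. On starvation or lysosomal stress they enter the nucleus and switch on lysosomal and autophagy genes through E-boxes, short palindromes in the promoters. In pigment cells the same machinery borders on the melanosome, a lysosome-related organelle, and GPNMB is a glycoprotein of melanosomes and lysosomes that MITF also drives.

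The promoter sequences are shown because they hold the letters that these factors read. RefSeq promoters (GRCm38.p6, 250 bases before the annotated start to 50 after it) matched 9 of the 10 genes, with 12 promoters in all. Ctsb was not matched. The E-box searched was CACGTG, which reads the same on both strands, and its 8-base form TCACGTGA, the core of the element shared by lysosomal genes, contains it. The M-box TCATGTGA, read on both strands, was searched as well. The E-box occurred in 7.15% of 32851 promoters, the 8-base form in 0.974% and the M-box in 0.986%. Among the 10 genes the E-box was found in the promoters of Lamp1, Ctsd and Ctsl, the 8-base form in that of Ctsd, and the M-box in none of the 12. In the stretches below, 5′ to 3′ on the gene's own strand, capitals mark the E-box or its 8-base form. The stretches are Lamp1 (chr8:13159085-13159166, plus strand), Ctsd far (chr7:142388052-142388077, minus strand), Ctsd near (chr7:142387904-142387941, minus strand), Ctsl (chr13:64370736-64370770, minus strand) and, from the wider pathway, Slc36a1 (chr11:55204294-55204358, plus strand).
Lamp1: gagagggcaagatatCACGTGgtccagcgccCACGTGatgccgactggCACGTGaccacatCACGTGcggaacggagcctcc
Ctsd far: tccccCACGTGacctgtatccagtca
Ctsd near: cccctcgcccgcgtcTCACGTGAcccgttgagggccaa
Ctsl: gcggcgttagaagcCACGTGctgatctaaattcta
Slc36a1: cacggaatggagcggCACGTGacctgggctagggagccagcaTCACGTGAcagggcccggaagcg
The Lamp1 promoter held 4 E-boxes, beginning 61, 45, 28 and 15 bases before the start. The Ctsd promoter held an E-box 245 bases before the start and the 8-base form 99 bases before it, and the Ctsl promoter a single E-box at 236 bases. The annotated start used for Ctsl lies inside the gene's span (chr13:64361890-64370772), so that its E-box is upstream of that start and within the gene. A match of letters is a description and not a site of binding.

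**Figure D1:**
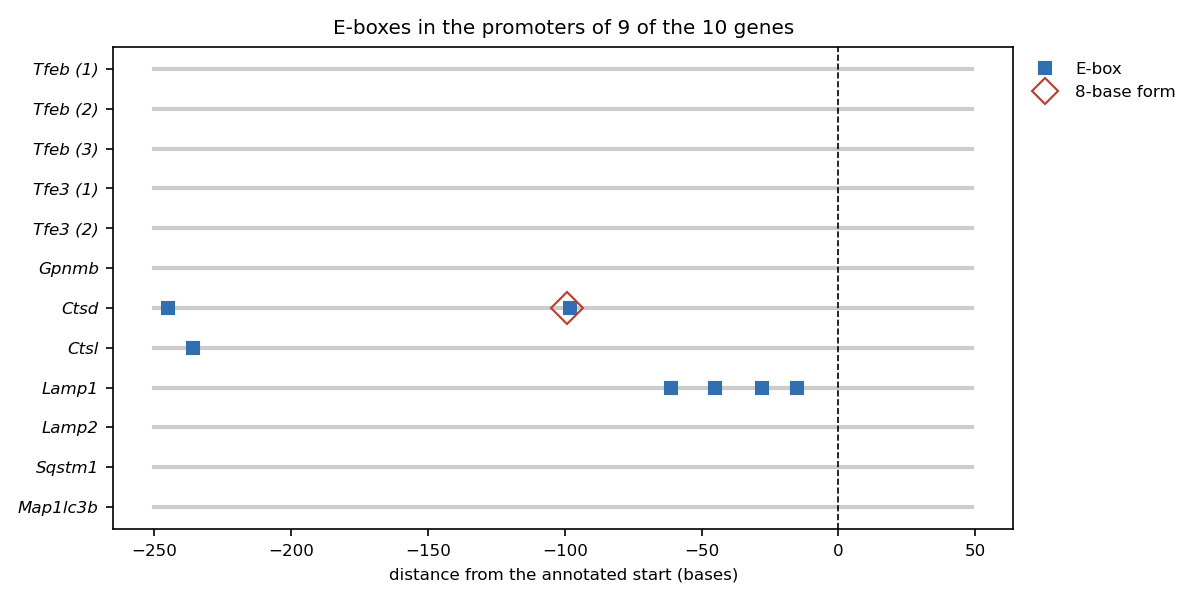
Positions of the E-box (blue squares) and of its 8-base form (red diamond) in the 12 RefSeq promoters of 9 of the 10 genes, as distance from the annotated start in bases (dashed line at 0); grey lines show the stretch searched, and numbers in brackets tell promoters of a gene apart. Lamp1 holds 4 E-boxes close to the start, Ctsd and Ctsl hold theirs further from the start, and the promoters of Tfeb, Tfe3, Gpnmb, Lamp2, Sqstm1 and Map1lc3b hold neither form.

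The libraries held 12632669 to 36176443 counts. Replicate 3 of each group was the shallowest (12632669 to 17006638) and stood apart from replicates 1 and 2 on the second principal component (21.2% of the variance), while the first (48.0%) set the PB-4-treated group apart. Results are therefore also given for replicates 1 and 2 alone, and from a fit with the replicate number as a block, which compares libraries of the same number. The line's identity was checked with 10 melanocyte genes, all of which had counts and which summed to 6901 to 8459 CPM (counts scaled to library size with TMM factors) with PB-4, 8063 to 10605 CPM with ATRA and 12491 to 15122 CPM in Control. The lower sum with PB-4 lay mainly in Tyrp1 (mean 2456 CPM with PB-4, 6212 in Control) and Pmel (523 and 1930). Dct (3911 and 3805), Sox10 (363 and 350) and Mitf (430 and 404) averaged no lower with PB-4, and the other melanocyte genes did. Of 8 keratinocyte markers, the sum was at most 0.257 CPM in any library. A lower level in these bulk libraries can mean fewer cells of a kind or less RNA in each cell, and these cannot be told apart.

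With the groups alone, none of the 10 genes passed the test between ATRA-treated and Control cells (edgeR quasi-likelihood test, adjusted p under 0.05 over all 17911 genes tested). Of all genes, 0.441% were called higher and 0.625% lower with ATRA. At an unadjusted p under 0.05, 3 of the 10 were higher and 0 lower, and DESeq2 called 2 higher, Ctsb and Ctsd. The shares over all genes by direction are not given for these settings, so these counts are not set against them. DESeq2 also called more genes of the whole table than edgeR did with the groups alone, as counted in the closing section. With the replicate block, Ctsb, Ctsd and Tfe3 rose with ATRA, 3 of 10 where 7.53% of all genes were called higher, and 0 of 10 fell where 10.8% of all genes were called lower. With replicates 1 and 2 alone, 6 of the 10 were called higher, namely these 3 genes with Ctsl, Sqstm1 and Map1lc3b. In that fit 6457 genes of the whole table were called in either direction, so calls were frequent among all genes too. The share called higher is not given for that fit either, so the 6 of 10 are not set against one. The median log2 fold change of the 10 genes was 0.48, against 0.00 over all genes.

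Between PB-4-treated and Control cells the 10 genes split in direction, and again none passed with the groups alone, where 11.5% of 19450 genes tested were called higher and 4.59% lower with PB-4. At an unadjusted p under 0.05, 4 of the 10 were higher and 1 lower, and DESeq2 called 1 higher (Ctsb) and 1 lower (Lamp2). For these settings too the shares over all genes are not given. With the replicate block 9 of the 10 passed. Tfeb, Tfe3, Ctsb, Ctsl and Map1lc3b rose, 5 of 10 where 23.1% of all genes were called higher, and Gpnmb, Lamp1, Lamp2 and Sqstm1 fell, 4 of 10 where 21.3% were called lower. With replicates 1 and 2 alone, 6 were called higher and 1 lower, in a fit that called 7461 genes of the whole table in either direction. The shares by direction are not given for that fit, so these counts are not set against them. The median log2 fold change of the 10 was 0.32, against 0.03 over all genes. The ATRA and PB-4 comparisons share their 3 Control libraries.

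Compared directly, PB-4-treated cells had less Sqstm1 than ATRA-treated cells, the single member called of the 10 with the groups alone, where 10.3% of 19521 genes were called higher and 1.94% lower with PB-4. With the replicate block Sqstm1, Ctsd, Ctsb and Gpnmb were lower with PB-4 than with ATRA and Tfeb was higher. These are 4 of 10 where 11.1% of all genes were called lower and 1 of 10 where 18.7% were called higher. The median log2 fold change of the 10 was -0.31, against 0.04 over all genes.

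**Figure D2:**
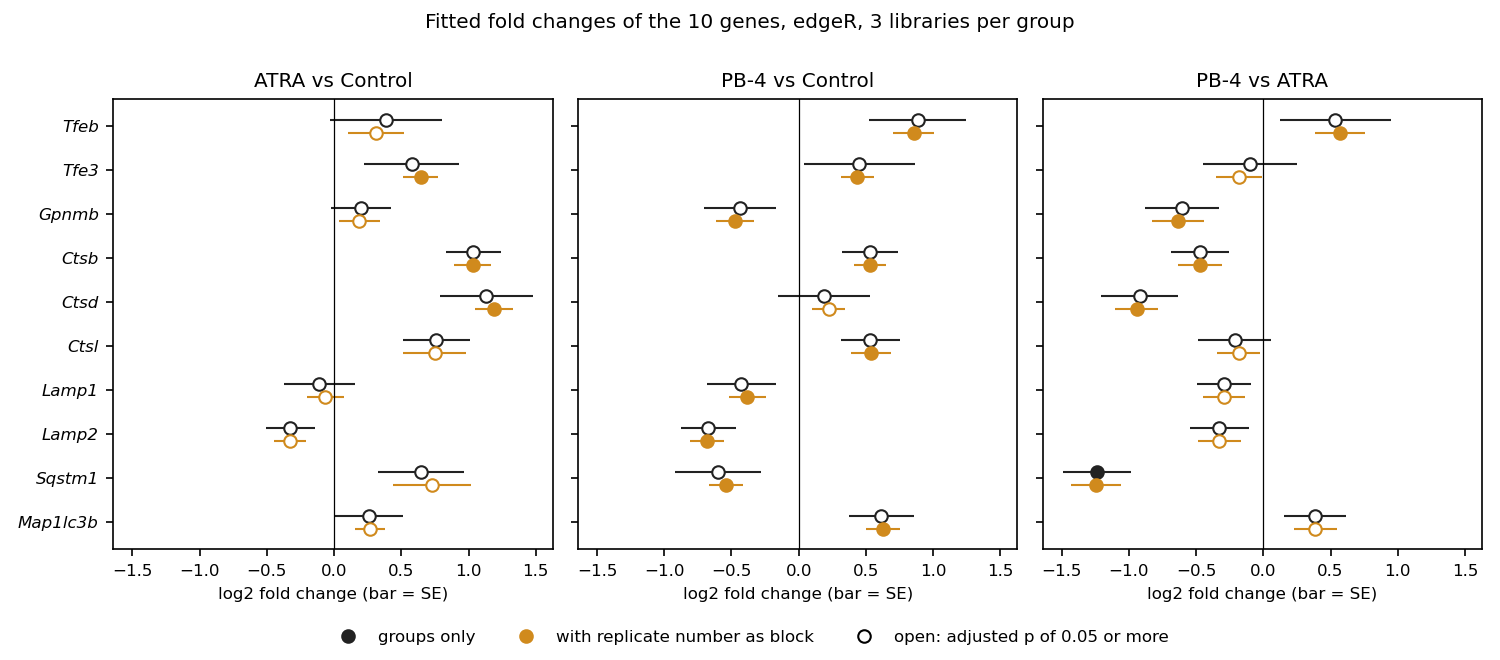
Fitted log2 fold change of each of the 10 genes (x axis, bar = standard error) in the 3 comparisons, with the groups alone (black) and with the replicate number as a block (orange); filled points have an adjusted p under 0.05. With the groups alone the single filled point is Sqstm1 in PB-4 against ATRA, and with the block 3, 9 and 5 points are filled in ATRA against Control, PB-4 against Control and PB-4 against ATRA.

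Cathepsin B, D and L are proteases that digest protein inside the lysosome. Ctsb, which codes for the cysteine protease cathepsin B, had 898, 1013 and 828 CPM with PB-4, 1146, 1247 and 1512 CPM with ATRA and 582, 704 and 596 CPM in Control (replicates 1, 2 and 3). The groups did not overlap: every ATRA library lay above every PB-4 library, and every PB-4 library above every Control library. The fold change was 2.05 with ATRA (log2 1.04 ± 0.21, standard error, adjusted p = 0.0602, edgeR), and 0.00282 with the replicate block. With PB-4 it was 1.45 (log2 0.53 ± 0.21, adjusted p = 0.122, and 0.00085 with the block). Leaving out replicate 3 of ATRA or of Control brought the ATRA comparison past the threshold (adjusted p = 0.0491 and 0.0427).

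Ctsd, the gene of the aspartic protease cathepsin D, had 677, 864 and 1221 CPM with PB-4, 1510.2, 1549.7 and 2328 CPM with ATRA and 547, 663 and 1219.8 CPM in Control. The lowest ATRA library lay above the highest library of the other groups, whereas PB-4 and Control overlapped and their replicates 3 were nearly equal. ATRA gave a fold change of 2.19 (log2 1.13 ± 0.35, adjusted p = 0.174), and 0.00167 with the replicate block. Each ATRA library exceeded the Control library of its number, by 1.47, 1.23 and 0.93 on the log2 scale. Ctsd was highest in replicate 3 of every group. Without Control replicate 3 the log2 change was 1.58 (adjusted p = 0.0296), and without ATRA replicate 3 it was 0.91 (adjusted p = 0.234). Replicates 1 and 2 alone gave 1.34 with ATRA (adjusted p = 6.96e-08). With PB-4 the log2 change was 0.19 ± 0.34 (adjusted p = 0.754, and 0.145 with the block), and it was -0.02 without PB-4 replicate 3 or without Control replicate 1. With replicates 1 and 2 alone it was 0.39 (adjusted p = 0.04997, at the edge of the threshold).

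Ctsl, which codes for cathepsin L, another cysteine protease, had 143, 154 and 109 CPM with PB-4, 176, 189.7 and 113 CPM with ATRA and 79.5, 87.5 and 112 CPM in Control. Replicates 1 and 2 of both treated groups stood well above those of Control, and replicate 3 was at about the same level in all 3 groups. The same-number log2 differences show it: 1.15, 1.12 and 0.01 with ATRA, and 0.84, 0.82 and -0.05 with PB-4. The log2 fold change was 0.76 ± 0.25 with ATRA (adjusted p = 0.199, and 0.0795 with the block) and 0.53 ± 0.22 with PB-4 (adjusted p = 0.14, and 0.009 with the block). With replicates 1 and 2 alone it was 1.13 with ATRA (adjusted p = 8.21e-08) and 0.87 with PB-4 (adjusted p = 1.61e-05).

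**Figure D3:**
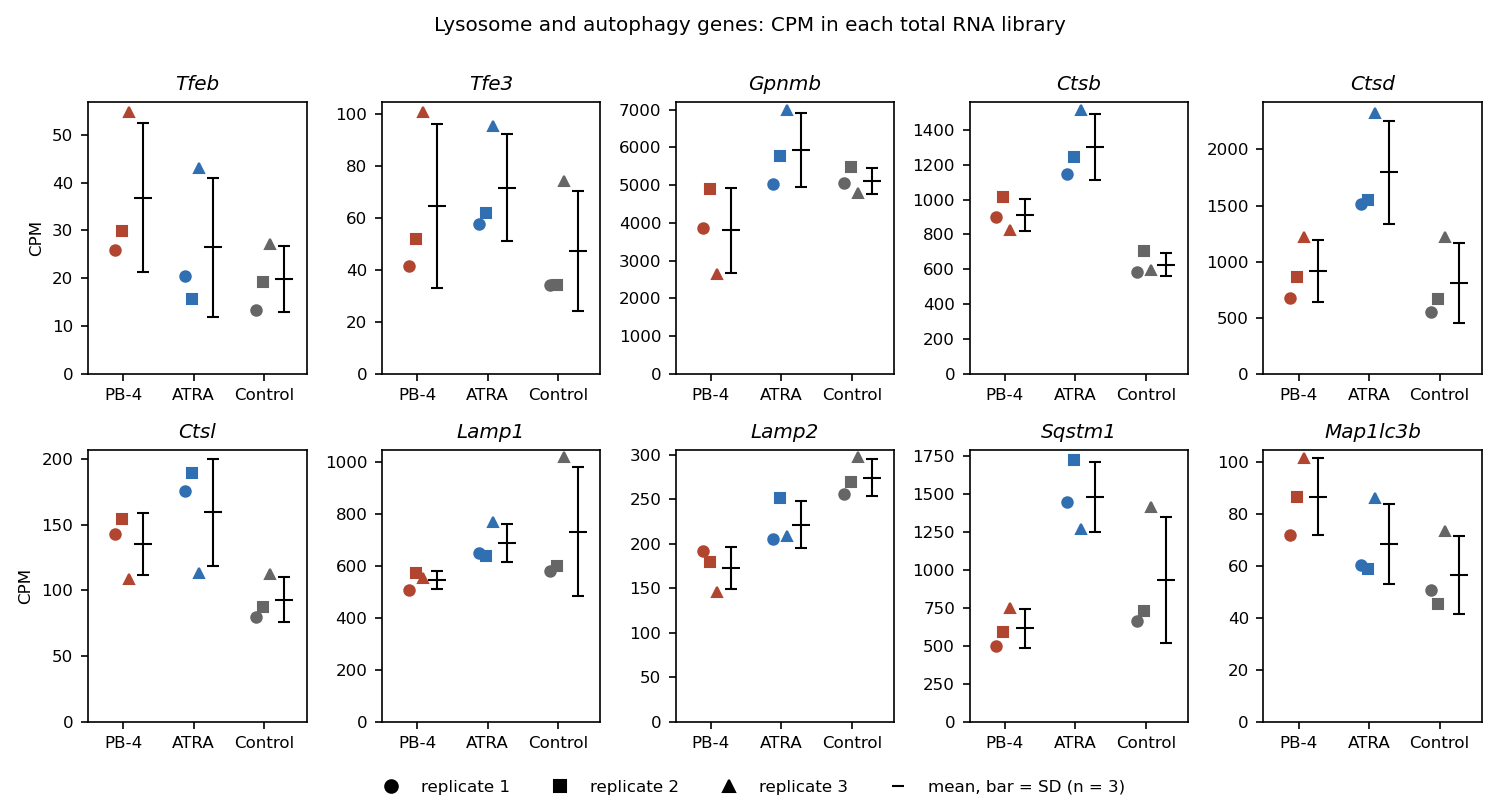
CPM of the 10 genes in each total RNA library (y axis from 0, own scale per gene), with PB-4 in red, ATRA in blue and Control in grey; symbols mark replicates 1, 2 and 3, and the black mark and bar give the mean and SD of 3 libraries. Ctsb does not overlap between any of the groups, Sqstm1 is high in all 3 ATRA libraries and in Control replicate 3, and Tfeb and Tfe3 are highest in replicate 3 of every group.

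Tfeb, the master regulator of lysosomal genes, had 26.0, 29.8 and 54.7 CPM with PB-4, 20.6, 15.7 and 43.1 CPM with ATRA and 13.4, 19.3 and 27.2 CPM in Control. Replicate 3 was the highest library in every group, and the groups overlapped. Within each number PB-4 lay above Control, by 0.95, 0.63 and 1.01 on the log2 scale. The PB-4 fold change was 1.85 (log2 0.89 ± 0.36, adjusted p = 0.131), and 7.82e-05 with the replicate block. With ATRA the log2 change was 0.39 ± 0.42 (adjusted p = 0.713, and 0.351 with the block), and it was -0.14 without ATRA replicate 3.

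Tfe3, its closest relative among the factors studied here, had 41.5, 51.9 and 101 CPM with PB-4, 57.9, 61.8 and 95.4 CPM with ATRA and 34.0, 34.3 and 74.2 CPM in Control. Again replicate 3 was the highest in each group, and all 3 same-number differences were above 0 for both agents. The log2 fold change was 0.58 ± 0.35 with ATRA (adjusted p = 0.481, and 0.0144 with the replicate block) and 0.45 ± 0.41 with PB-4 (adjusted p = 0.494, and 0.00649 with the block). The PB-4 against ATRA change of Tfe3 was -0.10 ± 0.35 and took either sign when single libraries were left out (-0.62 to 0.12 over the alternatives).

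**Figure D4:**
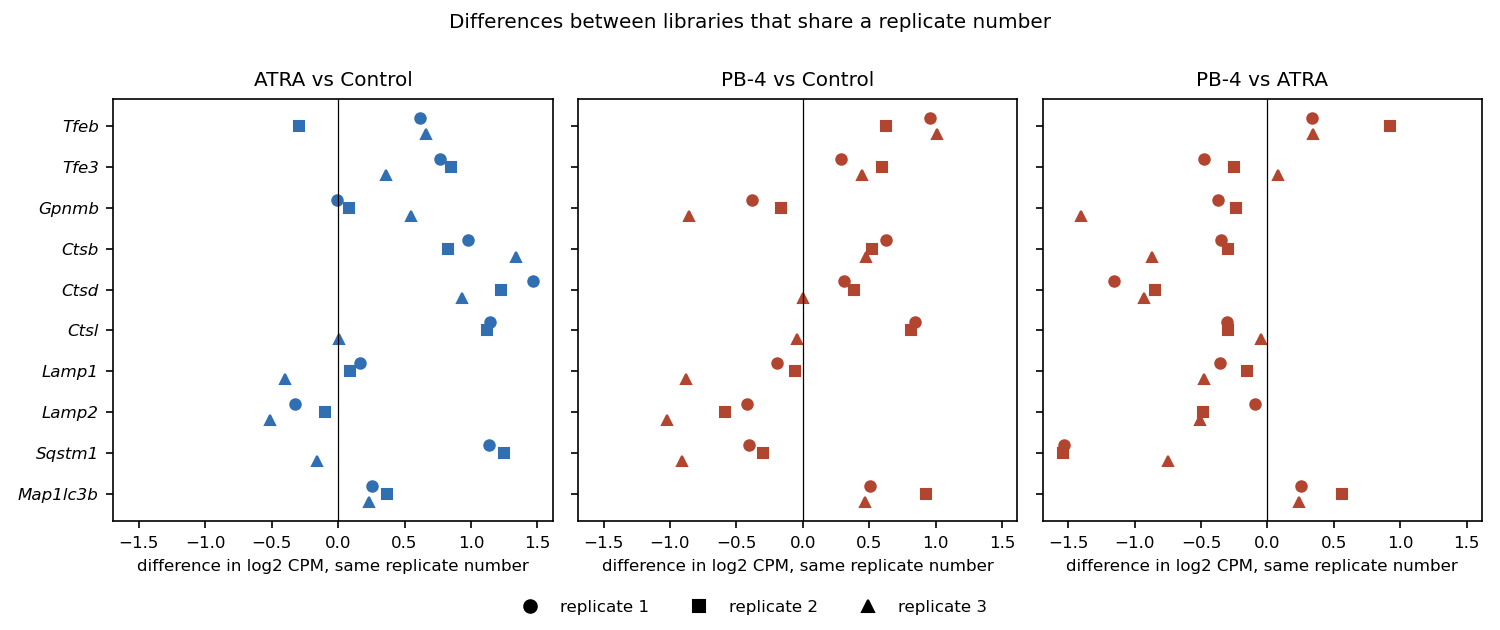
Difference in log2 CPM between libraries that share a replicate number (x axis), for each of the 10 genes and each comparison; circles, squares and triangles are replicates 1, 2 and 3. Ctsb and Ctsd lie above 0 in all 3 ATRA pairs, Lamp2 and Sqstm1 below 0 in all 3 PB-4 against Control pairs, and Ctsl and Sqstm1 show replicate 3 apart from replicates 1 and 2 in ATRA against Control.

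LAMP1 and LAMP2 are the heavily glycosylated proteins that line the lysosomal membrane, and LAMP2 also takes part in autophagosome fusion and in chaperone-mediated autophagy. Lamp1, whose promoter holds 4 E-boxes, had 506, 574 and 553 CPM with PB-4, 649, 638 and 769 CPM with ATRA and 578, 599 and 1016 CPM in Control. PB-4 lay below Control in every library, and Control replicate 3 was far above the other Control libraries. The log2 fold change with PB-4 was -0.43 ± 0.26 (adjusted p = 0.293, and 0.0293 with the replicate block), and with replicates 1 and 2 alone it was -0.09 (adjusted p = 0.676). With ATRA it was -0.11 ± 0.26 (adjusted p = 0.883, and 0.802 with the block), and 0.23 without Control replicate 3.

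Lamp2 had 192, 179.96 and 146 CPM with PB-4, 205, 252 and 209 CPM with ATRA and 257, 269.8 and 298 CPM in Control. Every PB-4 library lay below every ATRA library, and every ATRA library below every Control library. The fold change with PB-4 was 0.627 (log2 -0.67 ± 0.20, adjusted p = 0.0558), and 0.000107 with the replicate block. With replicates 1 and 2 alone the PB-4 change was -0.46 (adjusted p = 0.00935). With ATRA the log2 change was -0.33 ± 0.18 (adjusted p = 0.434, and 0.0976 with the block). In the blocked fit Lamp2 fell with PB-4, and Ctsb and Ctsl rose.

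SQSTM1, also called p62, binds ubiquitinated cargo and ties it to LC3 on the growing autophagosome, where it is itself degraded. Sqstm1 had 500.0, 592 and 753 CPM with PB-4 and 1449.6, 1725 and 1267 CPM with ATRA, against 661, 727 and 1415 CPM in Control. All ATRA libraries lay above all PB-4 libraries, and Control replicates 1 and 2 were close to the PB-4 levels while Control replicate 3 was close to the ATRA levels. PB-4 against ATRA gave a fold change of 0.424 (log2 -1.24 ± 0.26, adjusted p = 0.0144), lower in 3 of 3 same-number pairs, and 1.49e-05 with the replicate block. The call was lost without PB-4 replicate 1 (adjusted p = 0.0513) or 2 (0.0723) and without ATRA replicate 1 (0.0622) or 2 (0.0602). It was kept without replicate 3 of PB-4 (0.00757) or of ATRA (0.0109).

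Against Control, Sqstm1 had a log2 fold change of 0.65 ± 0.32 with ATRA (adjusted p = 0.38, and 0.145 with the block) and -0.60 ± 0.32 with PB-4 (adjusted p = 0.237, and 0.00145 with the block). The same-number differences with ATRA were 1.13, 1.25 and -0.16, so that replicate 3 ran apart from the others. Without Control replicate 3 the ATRA change was 1.10 (adjusted p = 0.0341), and with replicates 1 and 2 alone it was 1.19 (adjusted p = 3.2e-07). With PB-4 the same-number differences were -0.40, -0.30 and -0.91.

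Map1lc3b codes for LC3B, the ubiquitin-like protein that is joined to lipid on the autophagosome membrane. It had 71.8, 86.7 and 102 CPM with PB-4, 60.4, 58.8 and 86.3 CPM with ATRA and 50.6, 45.5 and 73.5 CPM in Control. PB-4 overlapped Control through PB-4 replicate 1 and Control replicate 3 alone, and each PB-4 library exceeded the Control library of its number. The fold change with PB-4 was 1.53 (log2 0.61 ± 0.24, adjusted p = 0.122), and 0.000254 with the replicate block. With ATRA the log2 change was 0.26 ± 0.25 (adjusted p = 0.68, and 0.137 with the block).

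Gpnmb had 3873, 4892 and 2636 CPM with PB-4, 5027, 5779 and 6979 CPM with ATRA and 5047, 5473 and 4781 CPM in Control. All 3 PB-4 libraries lay below all 3 ATRA libraries, and PB-4 replicate 3 was the lowest of all. The log2 fold change was -0.44 ± 0.27 with PB-4 (adjusted p = 0.306, and 0.00921 with the replicate block) and 0.20 ± 0.22 with ATRA (adjusted p = 0.72, and 0.432 with the block). PB-4 against ATRA gave -0.60 ± 0.28 (adjusted p = 0.199, and 0.0169 with the block). Mitf, which drives Gpnmb in pigment cells, had 647, 437 and 206 CPM with PB-4, 197, 167 and 267 CPM with ATRA and 500, 408 and 305 CPM in Control. It did not pass with the groups alone (log2 fold change 0.08 ± 0.40 with PB-4 and -0.96 ± 0.26 with ATRA), and with the block it was lower with ATRA (adjusted p = 0.0401).

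Between the agents, Ctsd and Ctsb followed Sqstm1 in direction. Ctsd was lower with PB-4 than with ATRA (fold change 0.528, log2 -0.92 ± 0.29, adjusted p = 0.0706), and 6.9e-05 with the replicate block, and no PB-4 library reached the lowest ATRA library. Ctsb gave -0.47 ± 0.22 (adjusted p = 0.194, and 0.0322 with the block). Tfeb gave 0.54 ± 0.41 (adjusted p = 0.456, and 0.0227 with the block). The remaining members did not pass in either fit: Ctsl at -0.21 ± 0.27, Lamp1 at -0.29 ± 0.20, Lamp2 at -0.33 ± 0.22 and Map1lc3b at 0.38 ± 0.23 on the log2 scale.

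Around the 10 genes, 202 further genes were read in 9 pathway lists. With ATRA, 2 of 199 tested rose with the groups alone and 0 fell, where 0.441% of all genes were called higher and 0.625% lower. Ctsh (cathepsin H, an aminopeptidase of the lysosome) averaged 40.0 ± 4.3 CPM with ATRA and 17.9 ± 1.0 CPM in Control (SD, n = 3; log2 fold change 1.14 ± 0.19, adjusted p = 0.0398, edgeR). Gabarapl1, a relative of LC3, averaged 257 ± 12.8 CPM with ATRA and 100.5 ± 22.9 CPM in Control (1.34 ± 0.21, adjusted p = 0.0364). Both calls were lost when ATRA replicate 1 or 2 or Control replicate 1 or 2 was left out (0 genes of the lists called in each case), and 8 genes were called without Control replicate 3.

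With the replicate block 27 of the 199 rose with ATRA and 16 fell, and all counts in this paragraph stand beside 7.53% of all genes called higher and 10.8% called lower in that fit. Of 46 hydrolases (the degrading enzymes of the lysosome) 7 rose and 1 fell, and of 28 lysosomal membrane proteins 7 rose and 1 fell. In the list of MiT/TFE factors and mTORC1 control 3 of 26 rose and 5 fell. The vacuolar ATPase, the proton pump that acidifies the lysosome, had 2 of 16 genes higher and 2 lower. With the groups alone, the median log2 fold change was 0.23 for the hydrolases and 0.14 for the membrane proteins, against 0.00 over all genes.

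With PB-4, 12 of 201 list genes tested rose with the groups alone and 10 fell, where 11.5% of all genes were called higher and 4.59% lower, so that the lists as a whole did not exceed the share of higher calls over all genes and were close to that of lower calls. Of 48 hydrolases 8 were higher, a share not far above that of all genes, and 0 lower, with a median log2 fold change of 0.17 against 0.03 over all genes. Ctsh averaged 69.7 ± 7.5 CPM with PB-4 and 17.9 ± 1.0 CPM in Control (log2 fold change 1.95 ± 0.21, adjusted p = 0.00121). Ctsf, cathepsin F, averaged 41.3 ± 12.7 CPM with PB-4 and 9.55 ± 2.40 CPM in Control (2.11 ± 0.30, adjusted p = 0.00329). Gm2a, the activator protein needed to degrade GM2 ganglioside, averaged 135 ± 47.6 CPM with PB-4 and 51.2 ± 17.5 CPM in Control (1.40 ± 0.32, adjusted p = 0.0215). The Ctsh and Ctsf calls held in every alternative run, and that of Gm2a was lost without Control replicate 1 or 2. Smpd1, Pld3, Fuca1 and the low-count gene Ctss were also among the hydrolases called.

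Macrophages are rich in lysosomal hydrolases, and some macrophage markers were also higher with PB-4. The 15 macrophage markers summed to 31.9 to 39.6 CPM with PB-4, 2.75 to 16.03 CPM with ATRA and 2.95 to 4.05 CPM in Control. Of 11 tested 4 rose with PB-4, where 11.5% of all genes were called higher with the groups alone. Most of the PB-4 sum was Lyz2 (lysozyme), with 21.4 to 25.5 CPM in PB-4 against 1.93 to 2.50 CPM in Control, and Cd74, with 5.19 to 10.7 CPM in PB-4 against 0.149 to 1.08 CPM in Control. Cd74 also averaged 7.69 CPM with ATRA. Csf1r, Adgre1 and Tyrobp had counts in PB-4 libraries alone, at up to 0.116, 0.677 and 0.207 CPM, and Ptprc, Itgam, C1qb and Cx3cr1 also averaged highest with PB-4, at up to 1.03, 0.465, 0.609 and 0.491 CPM in any library. Cd14 and Fcer1g differed little, averaging 0.247 and 0.55 CPM with PB-4 and 0.201 and 0.489 CPM in Control. C1qc and Aif1 had 0 counts in all 9 libraries. The part of the macrophage markers in the hydrolase levels was not tested. Of 8 fibroblast markers tested 5 rose with PB-4, beside the same 11.5% of all genes. The 9 markers listed summed to 447 to 1556 CPM with PB-4 and 70.4 to 108 CPM in Control. Col1a1 was the most abundant with PB-4 (234 to 1248 CPM, against 0.835 to 3.36 CPM in Control). Pdgfra averaged 81.4 CPM with PB-4 and 6.88 CPM in Control, Postn 38.6 CPM with PB-4 and 4.96 CPM in Control, and Col3a1 12.5 CPM with PB-4 and 0.135 CPM in Control, while Thy1 had 0 counts in all 9 libraries. The part of these markers in the levels of the lysosomal genes was not tested.

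The proton pump moved the other way with PB-4. Of 16 vacuolar ATPase genes 0 rose and 4 fell with the groups alone, where 11.5% of all genes were called higher and 4.59% lower, and the median log2 fold change was -0.56 against 0.03 over all genes. With the replicate block 1 rose and 11 fell, where 23.1% of all genes were called higher and 21.3% lower. Atp6v1g1, a subunit of the soluble part that splits ATP, averaged 91.6 ± 6.6 CPM with PB-4 and 167 ± 26.9 CPM in Control (log2 fold change -0.86 ± 0.20, adjusted p = 0.0226). Atp6v1h, a regulatory subunit of the same part, averaged 63.5 ± 13.1 CPM with PB-4 and 115 ± 10.3 CPM in Control (-0.86 ± 0.22, adjusted p = 0.0322). Atp6v0a2, a subunit of the membrane part, averaged 143 ± 12.2 CPM with PB-4 and 246 ± 49.8 CPM in Control (-0.79 ± 0.21, adjusted p = 0.0367). Atp6v1c1 was the fourth. Scaled to library totals alone, which moved the median of all genes to 0.20 in this comparison, the calls of Atp6v1h, Atp6v0a2 and Atp6v1c1 were lost, and all 4 calls were lost when PB-4 replicate 2 or 3 or Control replicate 1 or 2 was left out.

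In the list of MiT/TFE factors and mTORC1 control 0 of 25 rose and 3 fell with PB-4 with the groups alone. Of all genes 11.5% were called higher and 4.59% lower in that fit. With the replicate block Fnip1, Rragb, Akt1s1, Rheb, Tsc1 and Lamtor1 fell as well, and Lamtor4 and Slc38a9 rose. There 23.1% of all genes were called higher and 21.3% lower. Rragc is a Rag GTPase that recruits mTORC1 to the lysosome, and it averaged 92.7 ± 17.2 CPM with PB-4 and 184 ± 5.73 CPM in Control (log2 fold change -0.999 ± 0.213, adjusted p = 0.016). Flcn codes for folliculin, which activates RagC on amino acid supply and so keeps TFEB and TFE3 in the cytoplasm, and it averaged 71.7 ± 8.3 CPM with PB-4 and 139 ± 29.5 CPM in Control (-0.96 ± 0.22, adjusted p = 0.0205). Ppp3cb, a catalytic subunit of calcineurin, the phosphatase that releases TFEB to the nucleus, averaged 50.5 ± 7.1 CPM with PB-4 and 104 ± 12.4 CPM in Control (-1.05 ± 0.22, adjusted p = 0.0139). The 3 genes include parts that hold TFEB back and a part that releases it. Each call was lost without PB-4 replicate 2 and without Control replicate 1 or 2.

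The remaining lists moved in few genes with PB-4 with the groups alone, where 11.5% of all genes were called higher and 4.59% lower. Of 28 lysosomal membrane proteins 2 rose and 0 fell (median log2 fold change 0.24): Slc36a1, an amino acid transporter whose promoter stretch is printed above, with 107 ± 19.5 CPM in PB-4 and 49.2 ± 7.0 CPM in Control (1.11 ± 0.22, adjusted p = 0.0117), and Abca2, a lipid transporter, with 205 ± 59.5 CPM in PB-4 and 104 ± 24.5 CPM in Control (0.98 ± 0.27, adjusted p = 0.042). Of 14 genes that join LC3 and its relatives to lipid, Gabarapl1 rose (184 ± 8.4 CPM with PB-4 and 100.5 ± 22.9 CPM in Control, 0.87 ± 0.21, adjusted p = 0.0272) and Atg3, the E2-like enzyme of the reaction, fell (50.1 ± 3.4 CPM with PB-4 and 82.6 ± 8.6 CPM in Control, -0.72 ± 0.19, adjusted p = 0.0352). In lysosomal sorting 1 of 16 rose, the low-count Sorl1, and 2 fell, Vps35 of the retromer (189 ± 63.0 CPM with PB-4 and 399 ± 37.6 CPM in Control, -1.08 ± 0.29, adjusted p = 0.0357) and Nagpa, which uncovers the mannose 6-phosphate tag (21.5 ± 3.4 CPM with PB-4 and 36.7 ± 6.0 CPM in Control, -0.78 ± 0.23, adjusted p = 0.0497). The promoters of Atg3 and Nagpa, both lower with PB-4, also held 2 E-boxes each, as that of Slc36a1 did. That of Atg3 held the 8-base form as well. The promoters of Gabarapl1, higher with PB-4, and of Flcn, lower with PB-4, held no E-box and no M-box. A tie between these letters and the direction of change was not tested. Autophagosome initiation (21 tested), autophagy receptors (15) and fusion (18) had 0 calls in edgeR, and at an unadjusted p under 0.05 these lists had 2, 1 and 0 genes higher and 1, 1 and 4 lower. DESeq2 called 2, 2 and 1 of them. The shares over all genes are not given for the unadjusted threshold or for DESeq2, so these counts are not set against them.

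With the replicate block 40 of the 201 list genes rose with PB-4 and 50 fell, shares near the 23.1% of all genes called higher and the 21.3% called lower in that fit. The hydrolases had 19 higher and 4 lower, and the membrane proteins 7 higher and 1 lower. The autophagy receptors had 1 of 15 higher and 6 lower, and the fusion genes 1 of 18 higher and 7 lower. The 22 calls with the groups alone were 3 without Control replicate 1 or without Control replicate 2, 5 without PB-4 replicate 2 and 14 without PB-4 replicate 3.

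**Figure D5:**
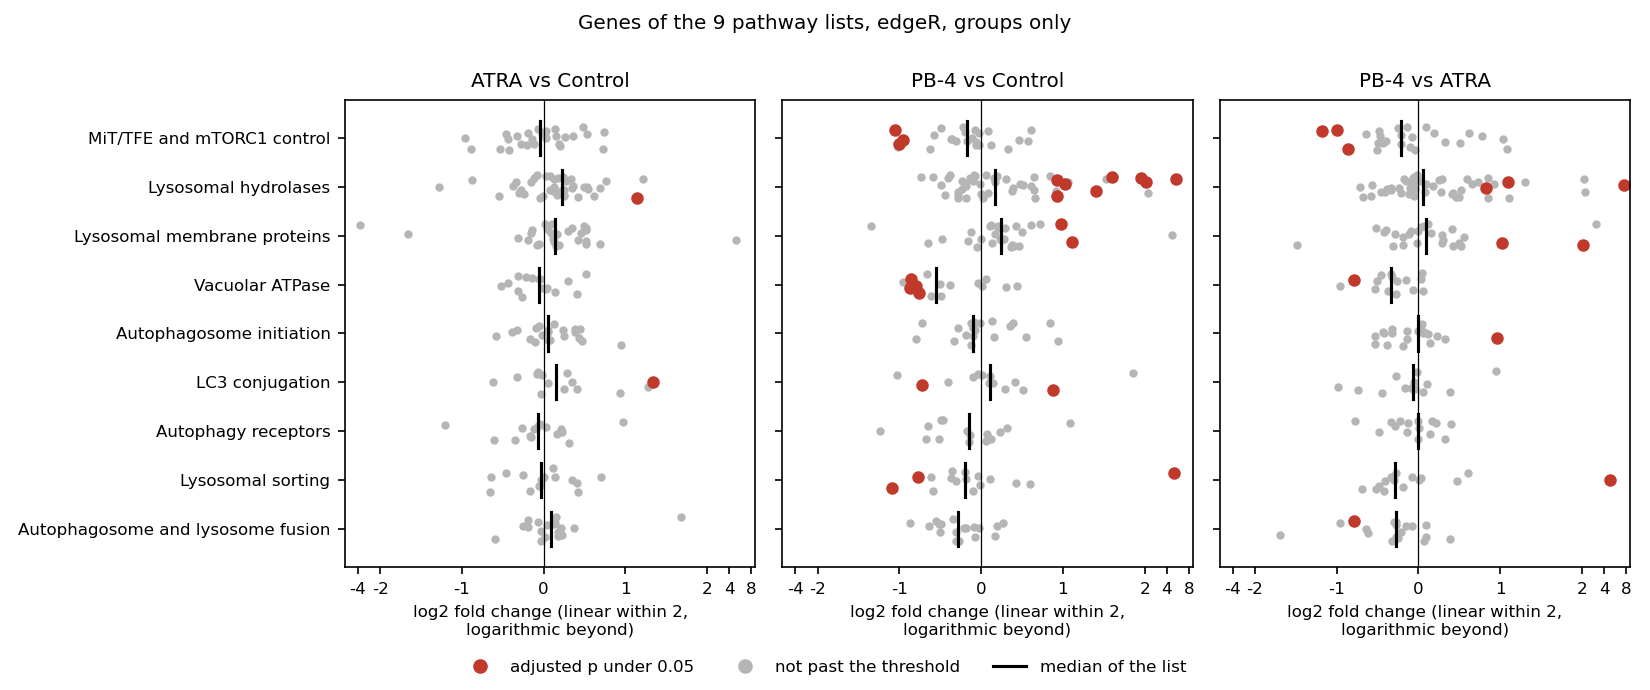
Log2 fold change (x axis, linear between -2 and 2 and logarithmic beyond) of each gene of the 9 pathway lists in the 3 comparisons, fitted with the groups alone; red points have an adjusted p under 0.05 and black bars are the list medians. In PB-4 against Control the called hydrolases lie to the right (8 of 48) and the called vacuolar ATPase genes to the left (4 of 16); fitted values beyond 4 belong to genes at or near 0 counts in a group and are no measure of size.

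Between PB-4 and ATRA 7 of 201 list genes were higher with PB-4, a smaller share than the 10.3% of all genes called higher, and 5 were lower, a share close to the 1.94% of all genes called lower. Gm2a averaged 135 ± 47.6 CPM with PB-4 and 65.1 ± 10.5 CPM with ATRA (log2 fold change 1.10 ± 0.28, adjusted p = 0.034), and Ctsh 69.7 ± 7.5 CPM with PB-4 and 40.0 ± 4.3 CPM with ATRA (0.83 ± 0.22, adjusted p = 0.0367). Among membrane proteins Slc36a1 was higher with PB-4 (1.02 ± 0.22, adjusted p = 0.0168), and Cd68, a lysosomal glycoprotein also used as a macrophage marker, had 14.98 ± 1.84 CPM with PB-4 and 3.75 ± 2.19 CPM with ATRA (2.08 ± 0.41, adjusted p = 0.0116). Cd68 had 11.5 ± 2.9 CPM in Control, so its low level was that of the ATRA libraries. Wipi1, which reads the lipid made at the start of autophagosome growth, was higher (60.8 ± 11.4 CPM with PB-4 and 32.0 ± 4.3 CPM with ATRA, 0.96 ± 0.23, adjusted p = 0.0268).

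On the lower side with PB-4 stood 3 genes of mTORC1 control, 1 of the proton pump and 1 of fusion. Akt1s1, which codes for the mTORC1 inhibitor PRAS40, had 49.4 ± 11.3 CPM with PB-4 and 101 ± 6.99 CPM with ATRA (-0.99 ± 0.23, adjusted p = 0.0229). Flcn (-0.86 ± 0.22, adjusted p = 0.0352) and the Rag GTPase gene Rragb (-1.19 ± 0.33, adjusted p = 0.0478) were lower too. Atp6v1g1 (-0.79 ± 0.20, adjusted p = 0.0349) and Vps11, a subunit of the tethering complexes of the late endosome (-0.79 ± 0.20, adjusted p = 0.0318), completed the list. The calls were 1 without PB-4 replicate 2 or ATRA replicate 1, 2 without ATRA replicate 2, 5 without PB-4 replicate 1 and 7 without ATRA replicate 3.

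The promoters of the pathway lists held the E-box at differing shares. Shares are of promoters, and a gene can have several: the 48 promoters of hydrolases belong to 39 genes, and the 16 of lysosomal sorting to 13. The E-box was in 18.8% of 48 promoters of hydrolases, 20% of 25 of membrane proteins and 30.8% of 13 of the proton pump. It was in 50% of 16 of lysosomal sorting, against 7.15% of all promoters. For MiT/TFE and mTORC1 control the share was 24%, and for the genes that join LC3 to lipid 23.1%. Autophagy receptors had 15%, fusion 14.3% and autophagosome initiation 10.5%. The 8-base form was in 31.2% of promoters of lysosomal sorting, which were 5 promoters of Gnptg, Igf2r and Vps26a. It was in 23.1% of those of the proton pump and 20% of those of the membrane proteins, against 0.974% of all promoters. The promoters of MiT/TFE and mTORC1 control (25) and of the autophagy receptors (20) held the 8-base form in 0 cases. Of the pump genes with an E-box (Atp6v0b, Atp6v0d1, Atp6v0e and Atp6v1a), Atp6v1a fell with PB-4 with the replicate block (log2 fold change -0.54, adjusted p = 0.00225, edgeR) and none was called with the groups alone. Among hydrolases with an E-box, Ctsf was called higher with PB-4 than in Control with the groups alone. With the block Gaa, Glb1, Lgmn and Arsa also rose with PB-4 and Ctsa fell, while Gla, Naglu and Sgsh were not called. In that fit 23.1% of all genes were called higher and 21.3% lower, and the hydrolases as a list leaned higher too.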

How the data were processed

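Total RNA libraries of PB-4-treated, ATRA-treated and Control B16 cells (3 each) were used, and the miRNA libraries were not analysed here. The authors deposited raw counts per gene, whole numbers without normalization. Per the submitters' processing notes reads were aligned with HISAT2 2.0.4 to GRCm38 (mm10). For counting, no tool, annotation or strand setting was given in the sources used here, so reads of overlapping or antisense genes cannot be told apart. The table had 46095 rows, of which 27 bear a date in place of a gene name; they held 0.214 to 0.260% of a library's counts and were not used.

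Groups were compared in pairs with the quasi-likelihood test of edgeR 4.0.16 in R 4.3.3 (robust fit, TMM factors, a sum of 10 or more counts per gene over the 6 libraries, Benjamini-Hochberg adjustment, threshold 0.05). Standard errors were derived from the log2 fold change and its F statistic (absolute change over the root of F). CPM used TMM factors over all 9 libraries, and same-number differences a prior count of 2. Alternatives were DESeq2 1.42.0, RLE factors, library totals, no filter, filterByExpr, all 9 libraries in 1 fit, the replicate block, replicates 1 and 2 alone and each library left out. Fits were tested on simulated data, in which libraries were drawn independently and without a replicate effect. The simulation therefore cannot speak to the difference that the replicate block makes in these libraries.

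Deviations from group means of libraries sharing a number correlated at 0.213 to 0.554, all above 0.1, so the numbers were taken as pairs. Replicates 1 and 2 correlated across numbers too (0.161 to 0.296), and replicate 3 with them at -0.428 to -0.268, so the check mainly sets replicate 3 apart. Duplicate libraries were looked for and none was found (lowest chi-square per degree of freedom 14.9).

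The 10 genes, the pathway lists and the marker lists were chosen with earlier results of these data known. Named list genes are up to 3 per list, direction and comparison with the smallest adjusted p among those called with a mean of at least 5 CPM; other names were added after their values were seen. A gene of the pathway lists is not reported here by name. Figures were drawn with matplotlib 3.10.9.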

Additional observations from a re-analysis of the deposited data

Results flagged for a closer look

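Sqstm1 is listed because the effects of the 2 agents ran opposite ways and their difference passed the test. It had a log2 fold change of -0.60 with PB-4 and 0.65 with ATRA, each against Control, and -1.24 for PB-4 against ATRA (edgeR, adjusted p = 0.0144, 3 libraries per group), lower with PB-4 in 3 of 3 same-number pairs. Neither comparison with Control passed on its own with the groups alone.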

How the results depend on the processing

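The fits differed more in how many genes passed than in direction. Between ATRA and Control the count of genes called was 191 with the groups alone, 1248 with DESeq2, 411 without a filter on low counts, 388 with all 9 libraries in 1 fit, 3288 with the replicate block, 6457 with replicates 1 and 2 alone and 10 to 980 with single libraries left out. Of the 10 members 0 passed with the groups alone, 2 with DESeq2, 1 without a filter, 1 with all 9 libraries, 3 with the replicate block, 6 with replicates 1 and 2 alone and 0 to 3 with single libraries left out. Of the pathway list genes the counts were 2, 11 with DESeq2, 43 with the replicate block, 87 with replicates 1 and 2 alone and 0 to 8 with libraries left out.

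Between PB-4 and Control the count was 3139 with the groups alone, 8630 with the replicate block, 7461 with replicates 1 and 2 alone and 1341 to 3440 with libraries left out. Of the members 0 passed, 2 with DESeq2, 1 with filterByExpr, 1 with all 9 libraries, 9 with the replicate block, 7 with replicates 1 and 2 alone and 0 to 1 with libraries left out. List genes called were 22, 35 with DESeq2, 90 with the replicate block, 77 with replicates 1 and 2 alone and 3 to 23 with libraries left out. Between PB-4 and ATRA the count was 2384, 5821 with the replicate block, 7131 with replicates 1 and 2 alone and 1194 to 2761 with libraries left out. The members called were 1, 2 with DESeq2, 2 without a filter, 5 with the replicate block, 4 with replicates 1 and 2 alone and 0 to 2 with libraries left out, and the list genes 12, 60 with the replicate block, 78 with replicates 1 and 2 alone and 1 to 17. For both comparisons of this paragraph the count over all genes is not given for DESeq2, filterByExpr, all 9 libraries or no filter. Member and list counts in those settings are therefore not set against one.

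Few members changed sign, none of them called with the groups alone. In ATRA against Control, Lamp1 was 0.13 on the log2 scale with replicates 1 and 2 alone and -0.25 to 0.23 with libraries left out, and Tfeb -0.14 to 0.69. In PB-4 against Control, Ctsd ran from -0.023 to 0.58 with libraries left out. In PB-4 against ATRA, Tfe3 was 0.003 with library totals and -0.62 to 0.12 with libraries left out. The cause was not tested. Scaling to library totals moved the median of all genes to 0.20 in PB-4 against Control and 0.15 in PB-4 against ATRA; no member changed its call. Replicate 3 had the lowest depth and 3 libraries per group limit the precision of every fold change.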
